A study of Mus musculus with 67 samples.

Results

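The nuclear genes of the mitochondrial respiratory chain were described by complex in RNA sequencing libraries of mouse brain. Members were the rows whose symbol begins with Ndufa, Ndufb, Ndufc, Ndufs, Ndufv, Uqcr, Cox4 to Cox8 or Atp5, together with Sdha, Sdhb, Sdhc and Sdhd. The rule used symbols only, but it was chosen with earlier results of these data known. It gave 93 genes of the 24684 symbols in the 3 count tables of the series. Of these, 38 were grouped under complex I, 4 under complex II, 8 under complex III, 18 under complex IV and 15 under complex V. The remaining 10 share a symbol stem with a complex without being subunits and are called accessory here: the complex I assembly factors of the Ndufaf series, Atp5s and Atp5sl. By symbol, 92 members were found in the counts of the LPS experiment, without Ndufaf8.

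The series used RiboTag mice on a C57BL/6J background, in which Cre recombinase puts an HA tag on the ribosomal protein Rpl22, so that ribosomes of recombined cells can be pulled down with their RNA. All mice carried 2 copies of the tag allele and 1 Cre allele at the Cx3cr1 locus, which is active in microglia and other macrophages (CX3CR1CreER/WT RLP22HA/HA or CX3CR1Cre/WT RLP22HA/HA, as the labels spell them). The 67 libraries came from 3 experiments with 2 to 4 mice per group, and replicates were individual mice per the series' design text. Per the labels' protocols pull-down from homogenate used 125 µg of anti-HA antibody and its background 1 µg of a mouse IgG, so the antibody and its amount differ together in each comparison with IgG.

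The driver experiment held anti-HA pull-down, IgG and input libraries from mice with the tamoxifen-inducible CreER after tamoxifen (3 mice), from CreER mice without tamoxifen (2) and from mice with the constitutive Cre, which received none (3). Tamoxifen was given as 4 gavages of 5 mg from 4 to 6 weeks of age, and the age at collection was not in the labels used here. The digest experiment used CreER mice with tamoxifen and held pull-down (3), IgG (4), cells sorted after a 20 min collagenase digest (4) and undigested sorted cells (4). For the LPS experiment, CreER mice with tamoxifen were injected with PBS (3 mice) or with LPS at 2.5 mg/kg (4 mice), and tissue was taken 3 h later. Each treatment gave pull-down, IgG, sorted cells and pull-down from sorted cells, and the labels do not say whether the sort of that experiment used a digest. Cells were gated as CD11b positive and CD45 intermediate, leaving out GR1 positive cells. A constitutive Cre also acts during development, so cells that once used the locus keep the tag.

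Complex I (NADH dehydrogenase) and complex II (succinate dehydrogenase) feed electrons to ubiquinone, complex III passes them to cytochrome c, and complex IV reduces oxygen. Complex V makes ATP with the proton gradient that complexes I, III and IV build. Most subunits are encoded in the nucleus, while several core subunits of complexes I, III, IV and V come from mitochondrial DNA and are not translated by the cytosolic ribosomes that carry the tag. Neurons depend heavily on oxidative phosphorylation, whereas activated microglia are known to shift toward glycolysis. Mitochondrially encoded genes were not analysed here.

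Total counts ran from 166851 to 3513317 per library, with a median of 1115276, so single low genes are less precise in the shallow libraries. The lowest totals were in pull-downs from sorted cells, and the no-tamoxifen pull-downs held 186099 to 219521 counts. After the filter on low counts 84 members could be tested in the LPS data, 84 in the digest data and 86 in the driver data. Levels are given as CPM, the counts scaled to a common library size after TMM normalisation, and they compare libraries, not genes, since gene length was not used. Cox8c had 0 counts in all 67 libraries. Atp5g2, Cox4i2, Cox6b2, Cox7b2 and Cox8b also failed the filter in all 3 experiments, Cox7a1 and Ndufa4l2 in the LPS and digest experiments, and Ndufab1 in the digest and driver experiments. Small subunits of the chain have many near-identical processed copies in the mouse genome, and how reads that match several places were counted is not given in the sources used here, so values of single small subunits are uncertain to that extent.

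Promoters are shown for 3 members from both ends of the comparison between sorted cells and pull-down described further on: Ndufs6 of complex I and Uqcr11 of complex III, which were among the members lowest in sorted cells, and the assembly factor Ndufaf4, which was higher there. Each run is the 250 bases before the annotated start, 5′ to 3′ on the gene's strand, from RefSeq for build GRCm38.p6. Ndufs6 lies on the minus strand at chr13:73328483-73328732, Uqcr11 on the minus strand at chr10:80406822-80407071 and Ndufaf4 on the plus strand at chr4:24897833-24898082. Capitals mark GCGC, any 2 bases and GCGC again, the palindromic core bound by nuclear respiratory factor 1 (NRF1), in Ndufs6 and Ndufaf4, and CCGGAAG, an ETS-family motif of the kind bound by GABPA, in Uqcr11.
Ndufs6: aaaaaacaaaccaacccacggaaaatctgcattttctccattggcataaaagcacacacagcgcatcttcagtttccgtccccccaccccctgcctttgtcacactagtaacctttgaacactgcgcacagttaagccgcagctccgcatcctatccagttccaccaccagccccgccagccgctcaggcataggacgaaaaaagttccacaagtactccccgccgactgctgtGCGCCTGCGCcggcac
Uqcr11: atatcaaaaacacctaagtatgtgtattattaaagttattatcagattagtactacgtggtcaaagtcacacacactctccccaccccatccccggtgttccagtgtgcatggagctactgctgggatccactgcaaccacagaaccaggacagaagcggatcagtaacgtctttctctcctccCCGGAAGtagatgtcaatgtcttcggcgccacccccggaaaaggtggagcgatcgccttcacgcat
Ndufaf4: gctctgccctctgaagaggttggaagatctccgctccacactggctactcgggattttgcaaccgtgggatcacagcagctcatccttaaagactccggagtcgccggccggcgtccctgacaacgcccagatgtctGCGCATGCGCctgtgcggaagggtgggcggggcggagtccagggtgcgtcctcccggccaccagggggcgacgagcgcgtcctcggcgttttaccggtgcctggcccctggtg

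The RefSeq table matched 74 of the 93 members. In the window from 250 bases before to 50 bases after the start, searched on both strands, the NRF1-type motif was present in 20 of the 74 promoters and in 6.43% of the 27025 promoters in the table. CCGGAAG was present in 17 of 74, against 9.12% of all, and AANATGGCG, a motif of the YY1 kind, in 9 of 74, against 2.51% of all. These are matches of letters and not measured sites. Both Ndufs6 and Ndufaf4 carried the first motif although their RNA differed in opposite directions between sorted cells and pull-down.

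Members together took a different share of each library according to preparation and driver. They held 2.27% to 2.33% of all counts in pull-downs of PBS mice, 0.902% to 0.986% in sorted cells of the same treatment, and 1.02% to 1.07% where sorted cells were themselves pulled down. The digest experiment gave 2.32% to 2.37% in pull-down and 0.859% to 0.954% over both kinds of sorted cells. With the constitutive Cre, pull-down held 5.73% to 6.02%, above every input library (3.29% to 4.11%), while homogenate pull-down from CreER mice with tamoxifen held 2.15% to 2.36%, below every input. These shares are raw counts and do not depend on the scaling of libraries. The groups named in each of these sentences did not overlap.

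**Figure D1:**
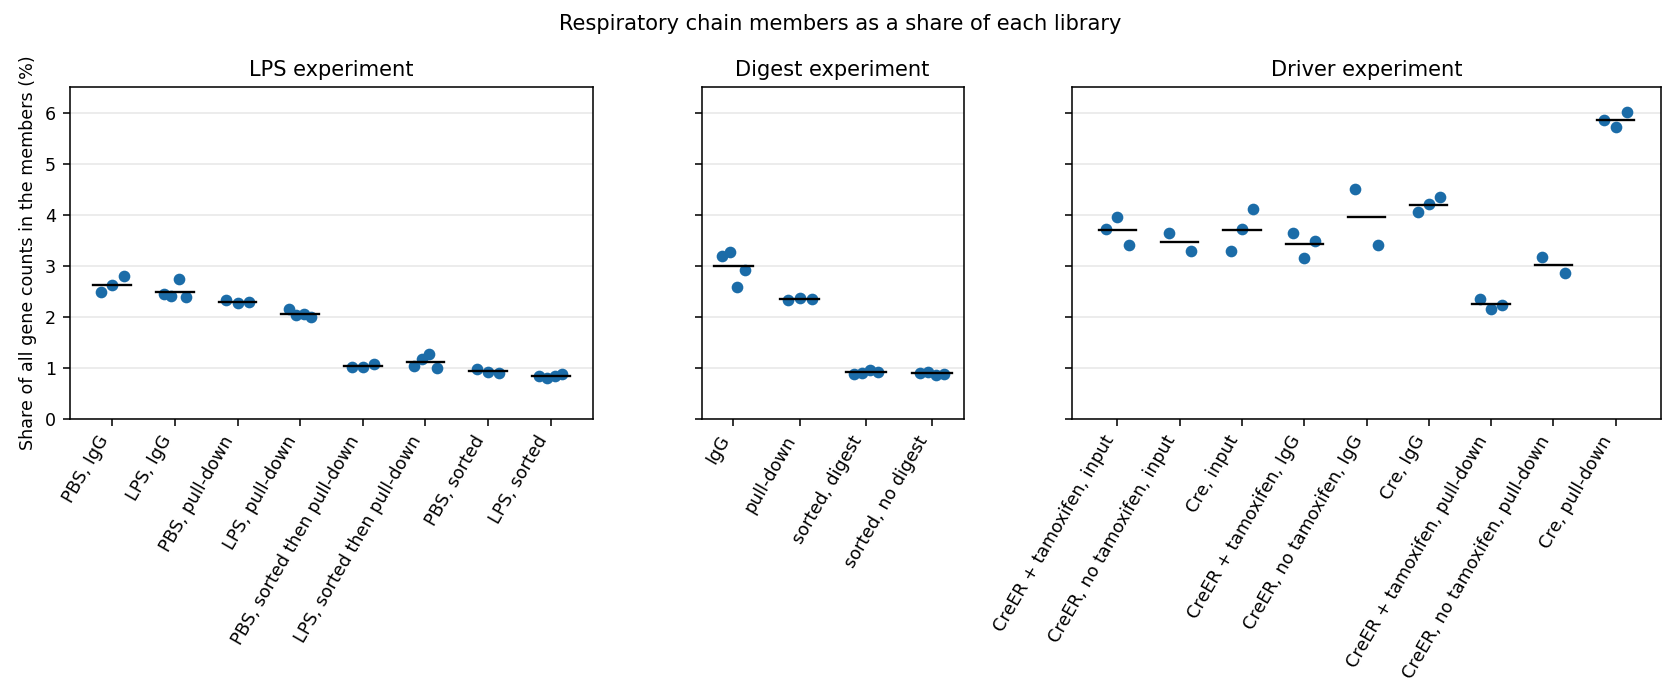
Percent of all counts in each library that fell on the members, by group in the 3 experiments (points are libraries, the bar is the group mean). Sorted cells sit at or under 0.986%, homogenate pull-downs of CreER mice with tamoxifen between 2.00% and 2.37%, and Cre pull-downs between 5.73% and 6.02%.

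The first comparison set RNA of sorted cells against ribosome-bound RNA pulled down from brain homogenate. In PBS mice most members of complexes I, III, IV and V were lower in sorted cells, with a median log2 fold change of -1.27 over 84 members, or 41.4% of the pull-down level, beside -0.15 over all genes tested. Under the edgeR quasi-likelihood test with Benjamini-Hochberg adjustment, 62 members were lower and 7 higher. Of all 11444 genes 71.9% were called, 38.7% lower and 33.2% higher. The medians by complex were -1.52 for complex I (29 lower and 0 higher of 37), -0.38 for complex II (2 lower of 4), -1.76 for complex III (6 lower and 2 higher of 8), -1.27 for complex IV (10 lower of 12) and -1.38 for complex V (13 lower of 14). The 9 accessory proteins had a median of 0.98, with 5 higher and 2 lower. For 73 of the 84 members (86.9%) the libraries of the 2 groups did not overlap, beside 76.0% of all genes tested.

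Within complex I the 7 tested core subunits, which carry the flavin and the iron-sulfur clusters and are conserved in bacteria, had a median of -1.12, with 5 lower. The 30 supernumerary subunits, which surround that core, had a median of -1.66, with 24 lower. Ndufs6, a zinc-binding supernumerary subunit, stood at 440, 402 and 423 CPM in pull-down and at 66.9, 58.1 and 57.5 CPM in sorted cells. The pull-down libraries were all far above the sorted ones (log2 fold change -2.78 ± 0.21 SE, adjusted p = 1.58e-18). Ndufa4 stood at 86.2, 65.0 and 65.7 CPM against 11.9, 15.2 and 12.6 CPM, again without overlap (-2.45 ± 0.45, adjusted p = 2.88e-05). Its symbol places it in complex I, but its protein has since been assigned to complex IV. Ndufs1, the largest core subunit, differed less, with 77.4, 86.7 and 84.1 CPM in pull-down against 62.3, 65.1 and 70.1 CPM in sorted cells, and it was not called. It was called when the mouse was kept as a block and only the groups compared were fitted (-0.37, adjusted p = 0.0461).

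Complex II, which also serves the tricarboxylic acid cycle and has no mitochondrially encoded subunit, was split. The flavoprotein Sdha stood at 153, 184 and 154 CPM in pull-down and at 147, 159 and 132 CPM in sorted cells, with overlapping libraries and a log2 fold change of -0.17 (adjusted p = 0.399). The iron-sulfur subunit Sdhb was lower by a log2 fold change of -0.60 ± 0.16 (adjusted p = 0.000856). The membrane anchor Sdhc fell from 405, 389 and 394 CPM to 125, 102 and 99.5 CPM (-1.85 ± 0.17, adjusted p = 8.77e-15). The other anchor, Sdhd, had a value of -0.10 and was not called.

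Complex III held both the lowest and 2 of the higher members. Uqcr11, its smallest subunit, stood at 788, 742 and 872 CPM in pull-down and at 114, 88.6 and 119 CPM in sorted cells (-2.90 ± 0.20, adjusted p = 2.22e-20). Uqcrb, which lines the ubiquinone pocket, went the other way, with 20.5, 25.0 and 21.4 CPM in pull-down and 82.5, 62.3 and 88.3 CPM in sorted cells (1.80 ± 0.39, adjusted p = 0.000176). The core protein Uqcrc2 was higher as well, from 65.0, 42.0 and 60.4 CPM to 116, 80.3 and 74.3 CPM (0.72 ± 0.22, adjusted p = 0.00268). Neither gene had overlapping libraries, so members of 1 complex differed from pull-down in opposite directions. Without replicate 1 of the sorted cells Uqcrc2 was not called (0.47, adjusted p = 0.0938), nor was it without the filter on low counts (0.23, adjusted p = 0.386). Uqcrc1, the partner of Uqcrc2, was lower by -1.56.

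In complex IV, Cox4i1, the ubiquitous isoform of subunit 4, stood at 1494, 1572 and 1822 CPM in pull-down and at 487, 404 and 436 CPM in sorted cells (-1.88 ± 0.17, adjusted p = 1.3e-15). Cox5b, a zinc-binding subunit, was lower by -2.15 ± 0.33, and the muscle-type isoform Cox6a2 by -1.79. Cox7b and Cox7c, with values of -0.47 and -0.57, were the 2 tested subunits of the complex that were not called. Both were called with the mouse as a block and only the groups compared (-0.51 and -0.60, adjusted p of 0.000448 and 0.0323). In complex V the catalytic beta subunit Atp5b fell from 1358, 1365 and 1501 CPM to 310, 327 and 338 CPM (-2.12 ± 0.18, adjusted p = 1.18e-16), and Atp5k, a small subunit of the membrane part, was lower by -2.23. The gamma subunit Atp5c1, which forms the rotating stalk, had a value of 0.07 and was the 1 tested member of complex V that was not called.

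Among the accessory proteins, Ndufaf4, a chaperone of early complex I assembly, stood at 14.6, 10.5 and 10.7 CPM in pull-down and at 63.3, 66.4 and 75.7 CPM in sorted cells (2.50 ± 0.27, adjusted p = 1.56e-12). Ndufaf1 was higher by 2.79, from 3.65, 0.657 and 3.06 CPM to 19.3, 19.4 and 12.6 CPM. All sorted libraries lay above all pull-down libraries for both genes, at low levels for Ndufaf1. Ndufaf2 and Ndufaf3 were lower by -1.02 and -1.32, so the class did not move as 1.

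**Figure D2:**
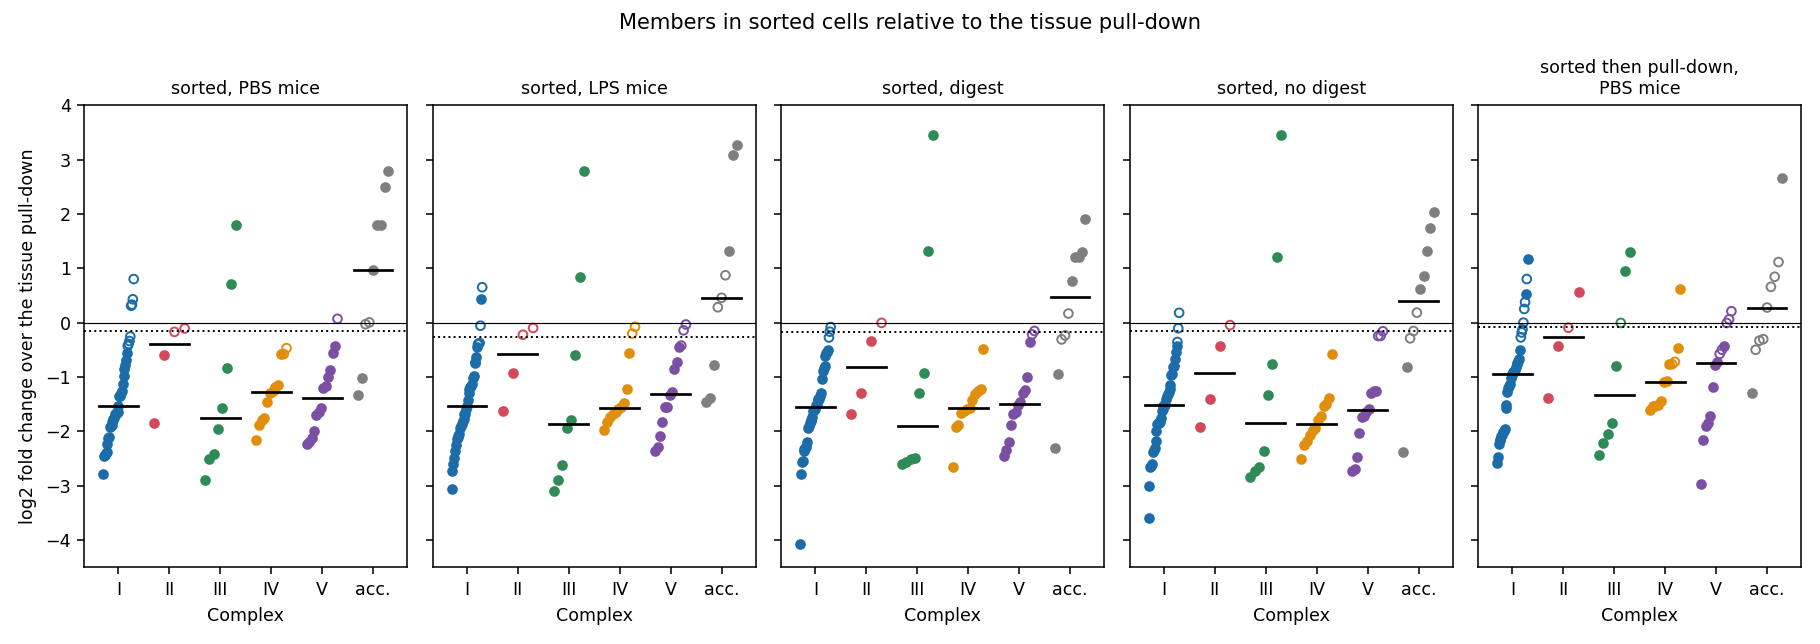
Log2 fold change over homogenate pull-down of each tested member, by complex, for sorted cells of PBS mice, of LPS mice, after a digest and without one, and for pull-down from sorted cells of PBS mice (filled points were called at an adjusted p under 0.05, open points were not, the bar is the median of the complex and the dotted line the median of all genes tested; acc. stands for the accessory proteins). In the 4 panels of sorted cells the medians of complexes I, III, IV and V lie between -1.90 and -1.27, and those of the accessory proteins between 0.41 and 0.98.

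The same comparison was made in separate libraries of LPS mice and of the digest experiment. In LPS mice 63 members were lower and 6 higher of 84, with a median of -1.36 beside -0.26 over all genes, where 76.1% of genes were called, 43.0% lower and 33.1% higher. After a digest 68 members were lower and 7 higher of 84, with a median of -1.42 beside -0.18, where 72.8% of genes were called, 41.1% lower and 31.6% higher. Of 83 members tested in all 3 library sets, 57 were lower in each, while 32.4% of the 10930 shared genes were. Ndufaf1, Ndufaf4, Ndufaf6, Uqcrb and Uqcrc2 were higher in each, while 24.5% of the shared genes were. Across the 84 members the log2 fold changes of PBS and LPS mice had a Pearson correlation of 0.95 and a Spearman correlation of 0.93, and those of PBS mice and the digest experiment 0.85 and 0.77 over 83 members. These are correlations across genes, which are not independent, and the libraries compared within each mouse group share a protocol.

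Uqcrb was near the counting limit in the pull-down of the digest experiment, with 5, 12 and 3 counts, or 3.79, 7.46 and 1.91 CPM. After a digest it stood at 51.4, 56.7, 42.5 and 46.7 CPM in sorted cells (3.45 ± 0.37, adjusted p = 3.01e-09). Ndufa4 was the lowest member there, from 127, 130 and 154 CPM to 12.9, 4.73, 6.07 and 10.5 CPM (-4.07 ± 0.29, adjusted p = 8.26e-13). Both genes thus stood apart from pull-down in opposite directions and by more in this experiment than in PBS mice, a difference between experiments that was not tested.

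Markers of other cells differed along with the members in these comparisons. All 14 neuronal markers were lower in sorted cells in each of the 3 library sets. Their summed level was 4583 to 5045 CPM in pull-down and 142 to 235 CPM in sorted cells of PBS mice, and 2868 to 3055 CPM against 10.5 to 27.0 CPM after a digest, where Syt1 and Gad2 were at 0 in all 4 libraries. All 8 markers of border macrophages, which also use Cx3cr1, were lower in PBS mice, at a summed 731 to 895 CPM in pull-down and 13.8 to 22.4 CPM in sorted cells, with Cd163, Lyve1 and Ms4a7 at 0 in all 3 sorted libraries. Of 10 astrocyte markers 8 were lower (1555 to 1659 CPM against 311 to 513 CPM), and of 11 oligodendrocyte markers 10 (2285 to 2702 CPM against 151 to 269 CPM). The 20 microglial markers summed to 65861 to 71325 CPM in pull-down and 72298 to 73869 CPM in sorted cells. The part of these other cells in the members' difference was not tested, and in bulk RNA fewer cells of a type and less RNA per cell cannot be told apart.

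Genes near the members in function were counted in the same way. Of 13 tested tricarboxylic acid cycle genes 8 were lower and 3 higher in sorted cells of PBS mice, with a median of -0.58, and of 26 tested assembly factors outside the name rule 11 were lower and 5 higher, with a median of -0.40. Of 9 tested regulators of mitochondrial biogenesis 4 were higher and 3 lower. Cyc1, the cytochrome c1 subunit of complex III whose symbol falls outside the rule, was lower by -1.11, and the ATP synthase inhibitor Atpif1 by -1.37.

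Digestion itself was compared directly in sorted cells. No member was called by the edgeR test between cells sorted after and without a digest, where 5 members had an unadjusted p under 0.05 and 0.139% of all genes were called, 0.121% higher and 0.0173% lower. The members' median was 0.07. Cox4i1 stood at 488, 486, 510 and 480 CPM with a digest and at 495, 448, 413 and 398 CPM without it, and the groups overlapped. Against the same pull-down libraries, cells sorted without a digest gave 67 members lower and 7 higher, with a median of -1.51 and 72.8% of genes called, 40.9% lower and 31.9% higher.

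By the members' median after TMM normalisation, pull-down from sorted cells stood between sorted cells and homogenate pull-down, though single members need not. Compared with sorted cells of PBS mice, 23 members were higher and 2 lower, with a median of 0.20 beside 0.04 over all genes, where 31.9% of genes were called, 16.6% higher and 15.2% lower. With total-count scaling 12 were higher and 2 lower, and the median was -0.056. Ndufs7, a core iron-sulfur subunit of complex I, was the highest at 1.41 ± 0.22 (adjusted p = 1.19e-06), followed by the F1 subunit Atp5d at 1.28 and Cox5a at 1.21. Ndufaf4 was lower by -1.66, with 19.5, 11.1 and 28.7 CPM in pull-down from sorted cells, all under the sorted values given above. Those 3 levels rest on 10, 3 and 17 counts. Compared with pull-down from homogenate, 54 members were lower and 7 higher, with a median of -0.80, and 53.7% of genes were called, 29.0% lower and 24.7% higher. Uqcrb (1.31) and Uqcrc2 (0.96) were again higher, and Uqcr11 was lower by -2.22. Without replicate 3 of the pull-down from sorted cells Uqcrb was not called (1.28, adjusted p = 0.0681). The summed neuronal markers were 766 to 1470 CPM in these libraries, above the sorted cells and below the homogenate pull-down.

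**Figure D3:**
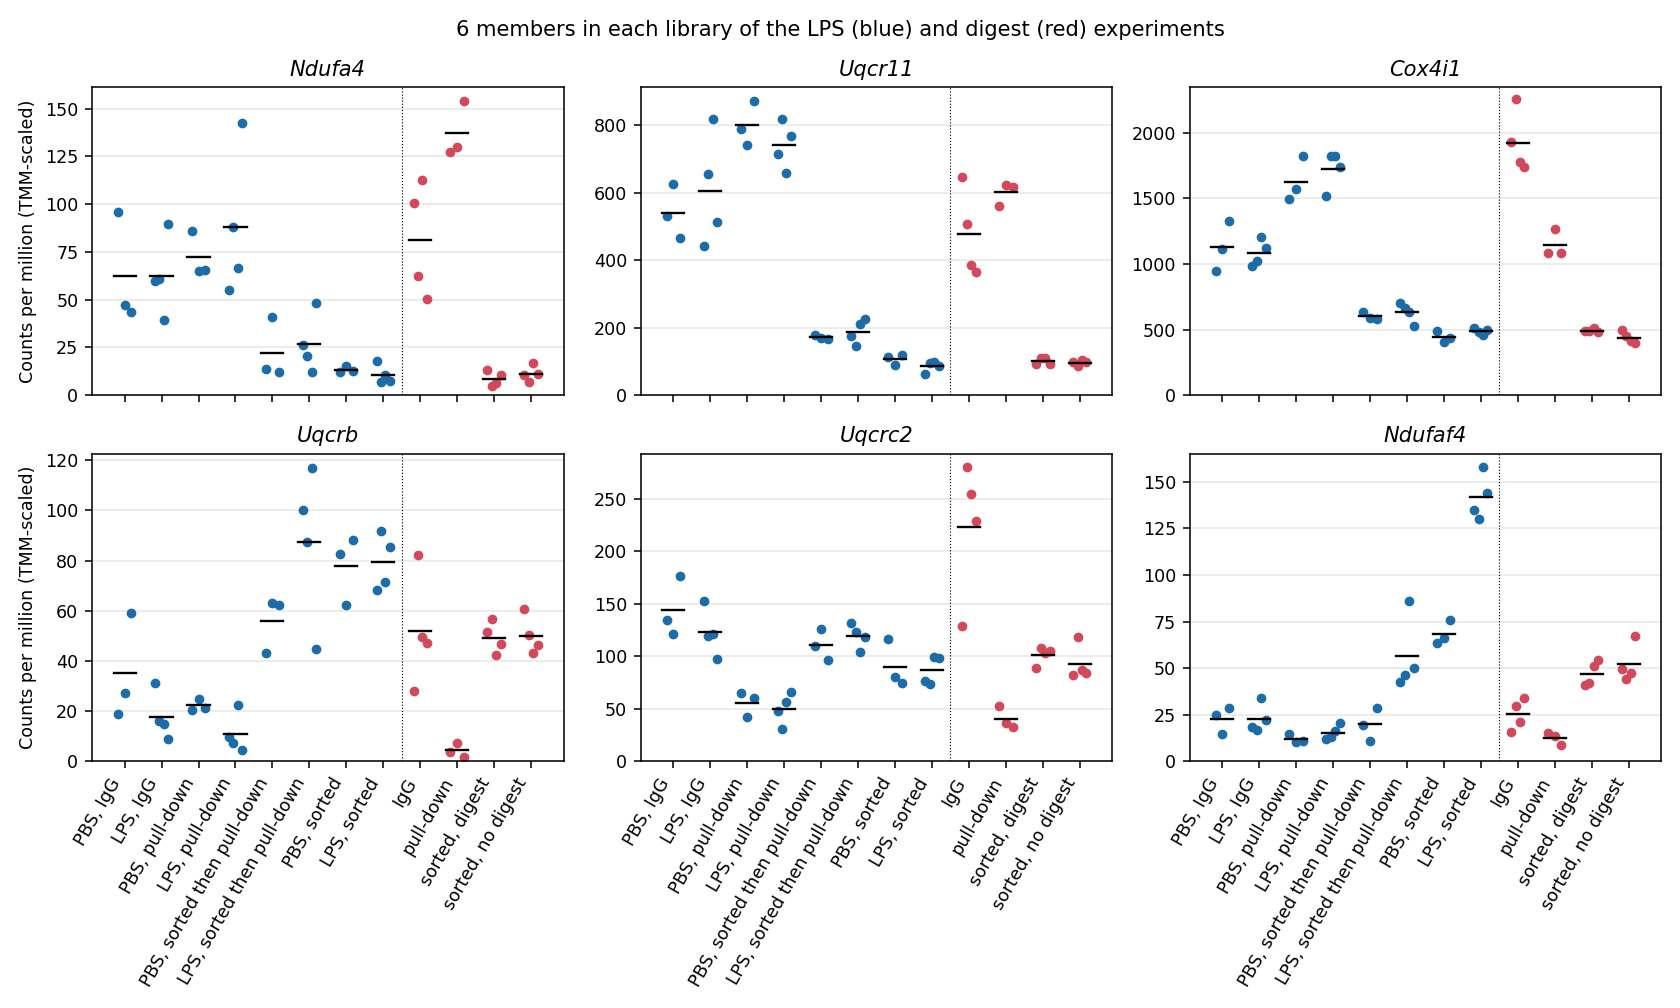
Level of 6 members in every library of the LPS and digest experiments (CPM, with points for libraries and a bar for the group mean). All groups of the LPS experiment, PBS included, are blue, and all groups of the digest experiment are red. Uqcr11, Cox4i1 and Ndufa4 are lower in sorted cells than in pull-down, and Uqcrb, Uqcrc2 and Ndufaf4 are higher.

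Pull-down was then compared with its IgG background. In PBS mice 24 members were higher and 24 lower of 84, where 65.0% of all genes were called, 33.0% higher and 32.0% lower. This split depended on scaling and was 11 higher and 46 lower with DESeq2 size factors, and 13 and 42 with total counts, which moved the median of all genes by -0.52 and -0.43. In the digest experiment 9 members were higher and 50 lower, with 74.5% of genes called, 26.7% higher and 47.8% lower. In CreER mice with tamoxifen of the driver experiment 22 were higher and 39 lower, with 66.1% of genes called, 30.8% higher and 35.3% lower. The members' split there was 5 and 53 with total counts. Members called higher in all 3 library sets were Atp5e, Cox7a2l, Ndufa7, Sdhc, Uqcr10 and Uqcr11, 6 of 83 members, beside 23.0% of the 10535 shared genes. A further 17 of 83 members were lower in all 3, beside 25.4% of those genes, among them Sdha, Uqcrc1, Uqcrc2, Uqcrfs1, Ndufs1, Ndufs3 and Atp5c1.

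Subunits of complex II again went apart against IgG. Sdhc stood at 142, 115 and 140 CPM in IgG and at 405, 389 and 394 CPM in pull-down of PBS mice (1.58 ± 0.17, adjusted p = 8.4e-13). Sdha stood at 273, 246 and 328 CPM in IgG and at 153, 184 and 154 CPM in pull-down (-0.79). No library overlapped for either gene. In the digest and driver experiments Sdhc was higher by 1.09 and 1.58, and Sdha was lower by -1.80 and -1.38.

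The driver comparison asked how much of each member the pull-down held relative to input. With CreER and tamoxifen 36 members were lower and 10 higher of 86 tested, with a median of -0.40 beside -0.28 over all genes, where 64.2% of genes were called, 28.7% higher and 35.5% lower. With total-count scaling 61 were lower and 2 higher. With the constitutive Cre 57 members were higher and 3 lower, with a median of 0.91 beside -0.02 over all genes, where 34.9% were called, 18.1% higher and 16.8% lower. The 2 contrasts use separate libraries. The medians with Cre were 1.00 for complex I (27 higher of 37), 0.48 for complex II (1 higher and 1 lower of 4), 1.44 for complex III (7 higher of 8), 0.93 for complex IV (10 higher of 13), 0.83 for complex V (10 higher of 14) and 0.15 for the accessory proteins (2 higher and 2 lower of 10).

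With Cre, Ndufa4 stood at 52.6, 52.6 and 37.0 CPM in input and at 195, 225 and 415 CPM in pull-down (2.54 ± 0.34, adjusted p = 4.6e-06). Cox4i1 stood at 1482, 1769 and 1723 CPM in input and at 4427, 4415 and 4053 CPM in pull-down (1.37 ± 0.18, adjusted p = 2.6e-07). Uqcrh, the hinge protein of complex III, rose from 603, 588 and 454 CPM to 2088, 1739 and 1644 CPM, a log2 fold change of 1.73. The pull-down libraries were above every input library for these 3 genes. Sdhb was higher by 1.04, and Sdha was lower by -0.85 ± 0.20 (adjusted p = 0.00129), with 295, 306 and 347 CPM in input against 179, 169 and 178 CPM in pull-down. Atp5b had a value of 0.24 and was not called (adjusted p = 0.275). Ndufaf1 was lower by -1.46.

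With CreER and tamoxifen, the lower members included Uqcrb, at 35.7, 52.2 and 38.8 CPM in input and 7.71, 10.4 and 9.78 CPM in pull-down (-2.17 ± 0.35, adjusted p = 1.47e-06). These pull-down levels of Uqcrb rest on 6, 7 and 9 counts, which limits every comparison of this gene with these libraries. Cox5a was lower by -2.20 and Ndufb6, of the membrane arm of complex I, by -2.19. The input counts of Cox5a were uneven, at 897, 1115 and 3409, not scaled for depth. Among the higher members was Cox7a2l, grouped under complex IV by its symbol. It stood at 395, 418 and 223 CPM in input and 696, 832 and 935 CPM in pull-down (1.25 ± 0.19, adjusted p = 7.4e-07). Members called higher over input with both drivers included Atp5e, Cox7a2l, Ndufa2, Ndufa7, Ndufa9, Ndufaf8, Ndufb7, Uqcrc1 and Uqcrh, and those lower with both were Atp5s, Ndufaf1 and Sdha. Of all genes 9.36% were higher and 11.6% lower with both drivers.

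The difference between the drivers was tested as an interaction. The enrichment over input was greater with Cre than with CreER and tamoxifen for 66 members and smaller for 0, with a median difference of 1.31 on the log2 scale beside 0.22 over all genes, where 43.6% of genes were called, 23.9% greater and 19.7% smaller. The median difference was 1.21 for complex I (29 called of 37), 0.51 for complex II (1 of 4), 1.66 for complex III (8 of 8), 1.60 for complex IV (10 of 13), 1.44 for complex V (14 of 14) and 1.30 for the accessory proteins (4 of 10). Uqcrb had the largest called difference, 3.53 ± 0.43 (adjusted p = 2.56e-08), followed by Ndufb6 at 2.80, Ndufa4 at 2.68 and Uqcrc2 at 2.52. The Uqcrb value rests on 6, 7 and 9 counts in the CreER pull-downs with tamoxifen. Sdha had a difference of -0.03 (adjusted p = 0.95). Inputs of both drivers gave no called member by the edgeR test, where 4 members had an unadjusted p under 0.05 and 0% of genes were called.

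**Figure D4:**
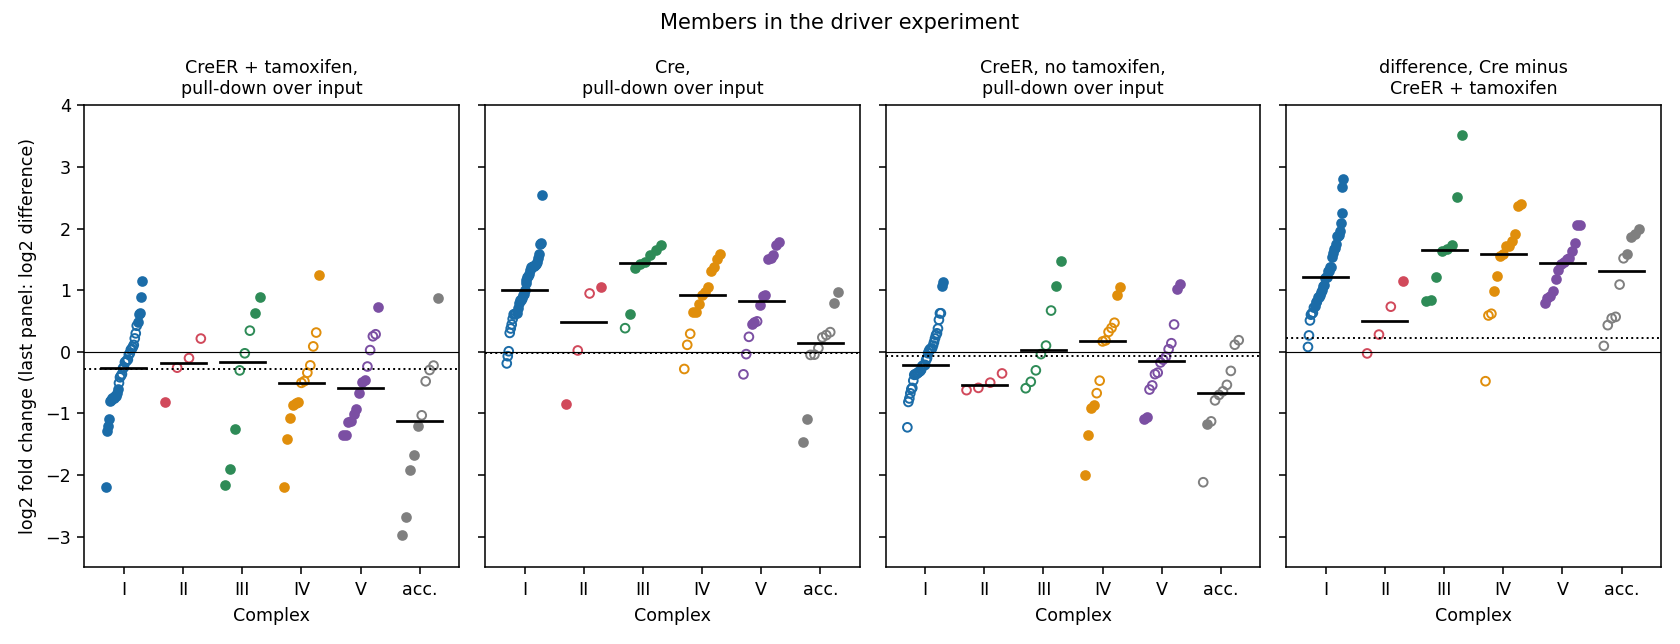
Log2 fold change of each tested member by complex for pull-down over input with CreER and tamoxifen, with Cre and with CreER without tamoxifen, and the difference of the first 2 (filled points were called, open points were not, the bar is the median of the complex and the dotted line the median of all genes tested). With Cre the medians lie between 0.15 and 1.44, and with CreER and tamoxifen between -1.12 and -0.16.

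Set against each other directly, Cre pull-downs exceeded CreER pull-downs with tamoxifen for 73 members, and 1, Cox7a2l, was lower (-0.54 ± 0.19, adjusted p = 0.0153), where 55.7% of genes were called, 30.2% higher and 25.6% lower. The median was 1.30 beside 0.20 over all genes. Uqcrb stood at 73.2, 58.1 and 78.5 CPM with Cre and at 7.71, 10.4 and 9.78 CPM with CreER (2.90 ± 0.34, adjusted p = 2.64e-09). Sdha stood at 179, 169 and 178 CPM against 168, 158 and 176 CPM, with overlapping libraries and a value of 0.07. Cox7a2l was not called with total-count scaling (-0.35, adjusted p = 0.113), without Cre pull-down replicate 1 (-0.44, adjusted p = 0.0813) or without CreER pull-down replicate 3 (-0.44, adjusted p = 0.078).

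Cell type markers separated the same pull-downs. All 20 microglial markers were lower with Cre, at a summed 3554 to 8545 CPM against 88630 to 112854 CPM with CreER and tamoxifen, and all 14 neuronal markers were higher, at 13754 to 18042 CPM against 4363 to 5420 CPM. Inputs held 10755 to 13511 CPM of the neuronal markers over the Cre mice and the tamoxifen-treated CreER mice. Over their own input, Cre pull-downs were higher for 18 of 20 microglial markers, and higher for 5 and lower for 4 of 14 neuronal markers. Cre pull-down replicate 1 stood apart with 7779 CPM of astrocyte markers, against 2968 and 2931 CPM in the other two. Without it 57 members were higher and 3 lower over input, 64 were called for the difference in enrichment and 72 in the direct comparison. What these cells contributed to the members' values was not tested. Of 13 tricarboxylic acid cycle genes 8 were higher with Cre and 1 lower, with a median of 0.96, and of 27 tested assembly factors outside the name rule 13 were higher and 0 lower, with a median of 0.81.

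Without tamoxifen, pull-down of the 2 CreER mice gave 8 members higher and 7 lower than input, with a median of -0.23, where 10.9% of genes were called, 6.44% higher and 4.46% lower. Uqcrb was higher by 1.47, with 94.8 and 108 CPM in pull-down against 34.9 and 37.8 CPM in input, and Cox5a was lower by -1.999. Against pull-down with tamoxifen, 15 members were higher and 12 lower, where 34.7% of genes were called, 16.4% higher and 18.3% lower. The members' split was 37 and 2 with total counts and 14 and 17 with DESeq2 size factors. Uqcrb was higher by 3.43 and Cox7a2l lower by -2.10. Neither Uqcrb (1.39 to 1.52, adjusted p of 0.0763 and 0.0679) nor Cox5a (-1.81 and -2.27, adjusted p of 0.15 and 0.115) was called over input when either pull-down library was left out, and Cox5a was not called without input replicate 1 (-1.25, adjusted p = 0.189). The 15 calls over input became 3 to 7 when any 1 of the 4 libraries was left out, with 3 without pull-down replicate 1. These pull-downs held 12090 to 13799 CPM of neuronal and 16639 to 19520 CPM of microglial markers, and their low depth limits single genes.

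IgG libraries of the driver experiment were not equal to input. With CreER and tamoxifen 18 members were higher and 21 lower in IgG than in input, where 35.0% of genes were called, 16.6% higher and 18.4% lower. With Cre 24 were higher and 9 lower, where 27.4% were called, 13.3% higher and 14.1% lower. Uqcrb stood at 110, 167 and 144 CPM in IgG of Cre mice, above both their input and their pull-down. Against IgG, Cre pull-down held 44 members higher and 8 lower, with a median of 0.62, where 38.8% of genes were called, 20.5% higher and 18.3% lower. The members' split was 32 and 11 with total counts. Ndufa4 was the highest at 2.59, and Uqcrb was lower by -0.99.

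The LPS comparison asked how the members differed between LPS and PBS in each preparation. In pull-down 1 member was higher and 4 lower of 84, with a median of -0.04 beside -0.03 over all genes, while 26.5% of all genes were called, 15.5% higher and 11.0% lower. That count of 5 was 9 with DESeq2 size factors, 11 with the Wald test, 13 with total counts and 17 when only the groups compared were fitted. It became 1 without PBS replicate 3, 2 without PBS replicate 1 and 9 without LPS replicate 4. In sorted cells 2 were higher and 9 lower, with a median of -0.05 beside -0.01, while 34.5% were called, 17.0% higher and 17.6% lower. In pull-down from sorted cells 5 were higher and 4 lower, with a median of 0.11 beside -0.07, while 25.6% were called, 12.7% higher and 12.9% lower. In IgG the edgeR test called 0 members, 6 had an unadjusted p under 0.05, the DESeq2 Wald test called 1, and 1.15% of all genes were called, 1.00% higher and 0.149% lower. The LPS effect differed between pull-down and IgG for 0 members by the edgeR test, with 6 at an unadjusted p under 0.05 and 2 by the Wald test, where 8.58% of genes were called, 5.60% higher and 2.98% lower. In the 3 preparations with calls, the share of members called by the edgeR test with all groups was below that of all genes. With total-count scaling the splits were 1 higher and 12 lower in pull-down, 1 and 12 in sorted cells, and 4 and 5 in pull-down from sorted cells, where DESeq2 size factors gave 4 and 6.

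Ndufaf4 was the highest called member in sorted cells, with 63.3, 66.4 and 75.7 CPM after PBS and 135, 130, 158 and 144 CPM after LPS (1.06 ± 0.20, adjusted p = 2.06e-05). Every LPS library was above every PBS library. In pull-down from sorted cells it stood at 19.5, 11.1 and 28.7 CPM after PBS and at 42.7, 46.3, 86.1 and 50.1 CPM after LPS (1.27 ± 0.34, adjusted p = 0.00301), again without overlap. These levels rest on few reads, with 10, 3 and 17 counts after PBS and 23, 9, 14 and 28 after LPS. In pull-down from homogenate Ndufaf4 had a value of 0.29 and was not called.

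Atp5b also rose in both sorted preparations, from 310, 327 and 338 CPM to 438, 403, 478 and 449 CPM in sorted cells (0.45, adjusted p = 0.0293) and from 393, 389 and 396 CPM to 757, 633, 646 and 581 CPM in pull-down from them (0.74 ± 0.17, adjusted p = 0.000667). The groups did not overlap in either. Per the series' text a mouse gave both sorted cells and pull-down, so these preparations are not independent. The call in sorted cells did not hold with DESeq2 size factors (0.39, adjusted p = 0.0534), total counts (0.34, adjusted p = 0.102) or no filter (0.42, adjusted p = 0.0764), nor without LPS replicate 3 or 4 or PBS replicate 1 or 2 (0.42 to 0.48, adjusted p of 0.0513 to 0.101).

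Atp5sl and Ndufaf7 fell in both sorted preparations. Atp5sl, an assembly factor of the distal membrane arm of complex I, stood at 56.8, 51.2 and 39.2 CPM after PBS and at 21.5, 11.7, 8.41 and 13.1 CPM after LPS in sorted cells (-1.94 ± 0.29, adjusted p = 1.63e-07). It was lower by -1.29 in pull-down from sorted cells and had a value of -0.48, not called, in pull-down from homogenate. The LPS effect on Atp5sl differed between sorted cells and homogenate pull-down by -1.46 ± 0.37 (adjusted p = 0.0135), the 1 member called in that interaction, where 3.21% of genes were called, 0.795% higher and 2.41% lower. That call was lost without LPS pull-down replicate 1 (adjusted p = 0.0579), LPS sorted replicate 3 (0.0792) or PBS sorted replicate 1 (0.0639), at differences of -1.27, -1.24 and -1.32. With the mouse as a block and only the groups compared, Atp5sl was again called (-1.37, adjusted p = 0.0062), as were Ndufs1 (0.78, adjusted p = 0.0335) and Atp5b (0.59, adjusted p = 0.00948). Both settings changed together, so these calls cannot be credited to the block alone. In pull-down from sorted cells Atp5sl was not called without LPS replicate 4 (-0.95, adjusted p = 0.0897). It had 15, 2, 2 and 5 counts there after LPS and 23, 11 and 21 after PBS. Ndufaf7, a methyltransferase that acts on complex I, fell from 49.5, 38.8 and 54.7 CPM to 21.5, 13.3, 18.9 and 11.9 CPM in sorted cells (-1.55, adjusted p = 1.34e-05). It was lower by -1.63 in pull-down from sorted cells and by -0.86 in homogenate pull-down. Ndufaf7 was the 1 member called in all 3 preparations in the same direction. In both homogenate pull-down and sorted cells 1 of 84 members was lower, beside 7.81% of all genes. In both sorted preparations 2 of 84 members were higher and 2 lower, beside 10.4% and 9.87% of all genes. In pull-down from sorted cells Ndufaf7 rested on few reads, with 6, 2, 2 and 8 counts after LPS and 12, 15 and 25 after PBS. The homogenate call was lost without PBS replicate 1 (-0.66, adjusted p = 0.127) or 2 (-0.79, adjusted p = 0.0585).

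The other called members were subunits, apart from the accessory Atp5s. In sorted cells Sdhb fell from 313, 314 and 247 CPM to 162, 192, 184 and 187 CPM (-0.68, adjusted p = 0.000398), and Ndufb3, Ndufc2, Ndufa6 and Ndufa9 of complex I were lower by -0.99, -0.62, -0.48 and -0.49. The liver-type isoform Cox6a1 was lower by -0.43 and Atp5s by -1.74. Atp5s rested on 5, 3, 4 and 6 counts after LPS and 28, 13 and 13 after PBS. Ndufa6, Ndufa9 and Cox6a1 each lost the call without PBS replicate 1 (-0.46, -0.35 and -0.38) or 2 (-0.42, -0.39 and -0.45), Ndufa9 also without LPS replicate 1, 2 or 4 (-0.43 to -0.53) and Cox6a1 without LPS replicate 2 (-0.36) or PBS replicate 3 (-0.39). In homogenate pull-down Uqcrh rose from 640, 507 and 424 CPM to 834, 914, 700 and 695 CPM (0.59 ± 0.16, adjusted p = 0.00357), while Ndufv3, Ndufs1 and Ndufa13 were lower by -0.53, -0.45 and -0.45. Without PBS replicate 3 none of these 4 genes was called, at 0.46, -0.47, -0.44 and -0.38, and Ndufs1 and Ndufa13 were not called without PBS replicate 1 either (-0.50 and -0.48) or without LPS replicate 3 (-0.42 and -0.41). Ndufs1 also lost the call without LPS replicate 2 (-0.33) or PBS replicate 2 (-0.41), and Ndufa13 without LPS replicate 1 (-0.44). In pull-down from sorted cells Cox7b (1.25), Sdhc (0.66) and Uqcr10 (0.59) were higher, and Ndufv3 (-0.75) and Ndufa7 (-0.63) were lower. Cox7b stood at 80.2, 130 and 101 CPM after PBS and at 124, 376, 480 and 118 CPM after LPS, so 2 libraries carried its mean and the groups overlapped. Its call was lost without either of these LPS libraries (1.00 and 0.78) and without PBS replicate 1 or 3 (1.03 and 1.19). Uqcr10 lost its call without LPS replicate 3 (0.43) or PBS replicate 1 or 2 (0.56 and 0.44), Ndufv3 without LPS replicate 4 (-0.74) or PBS replicate 2 or 3 (-0.66 and -0.79), and Ndufa7 without PBS replicate 1 (-0.59).

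**Figure D5:**
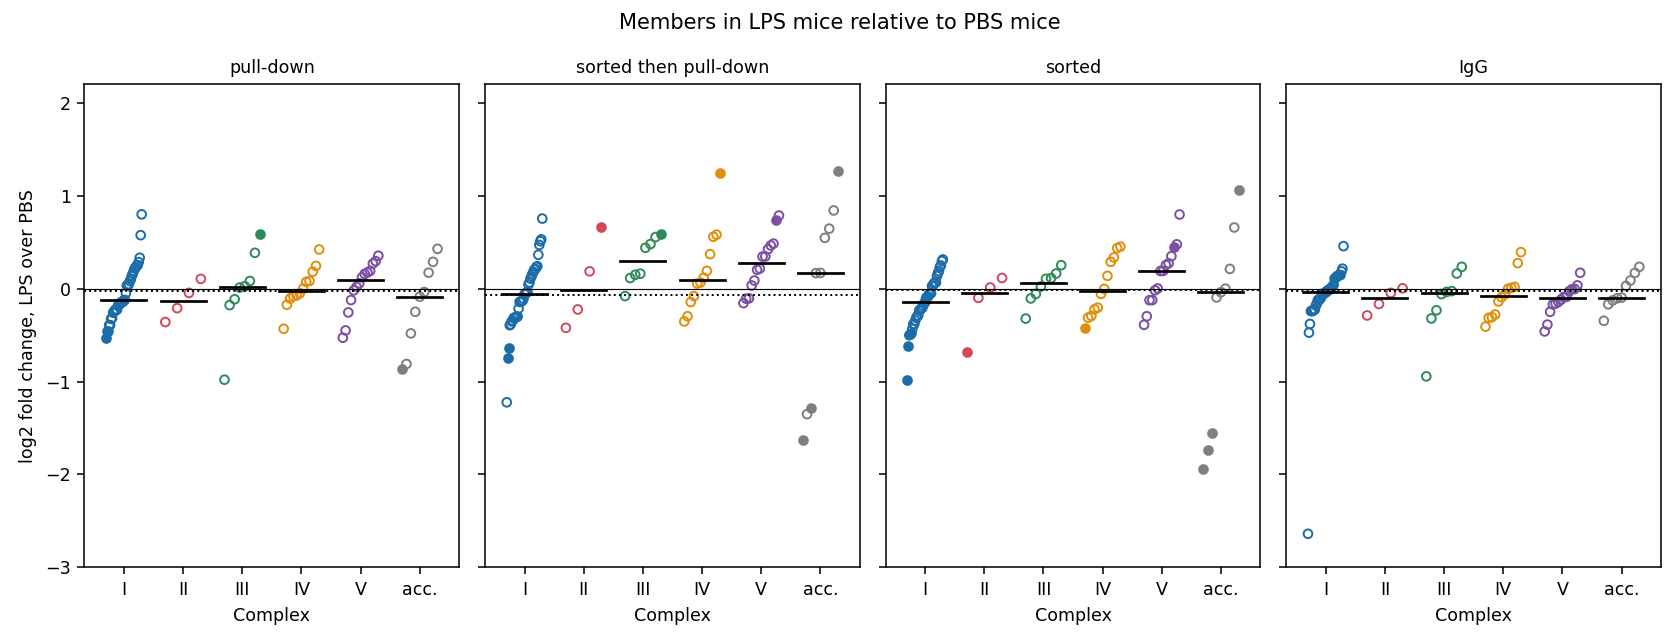
Log2 fold change between LPS and PBS for each tested member by complex, in pull-down, pull-down from sorted cells, sorted cells and IgG (filled points were called, open points were not, the bar is the median of the complex and the dotted line the median of all genes tested). Most points are open, those of IgG all are, and Atp5sl (-1.94) and Ndufaf4 (1.06) are filled among sorted cells.

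Summed by complex, the levels differed by scale. As shares of raw counts in pull-down, complex II held 0.0740% to 0.0857% after LPS against 0.0961% to 0.106% after PBS, complex I 0.706% to 0.808% against 0.878% to 0.912%, and complex IV 0.366% to 0.414% against 0.418% to 0.437%. The groups did not overlap for these 3 complexes, nor did they in sorted cells, where LPS libraries were again lower. There complex II held 0.0507% to 0.0523% after LPS against 0.0590% to 0.0725%, complex I 0.260% to 0.298% against 0.323% to 0.359%, and complex IV 0.155% to 0.163% against 0.169% to 0.187%. Among single genes, LPS and PBS libraries did not overlap for 16 of 84 members in pull-down, beside 35.3% of all genes tested. In sorted cells they did not overlap for 16 of 84 members, beside 38.7% of all genes.

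After TMM normalisation complex II stayed apart, at 875 to 992 CPM after LPS against 1047 to 1150 CPM in pull-down and 512 to 537 CPM against 552 to 678 CPM in sorted cells. Complex I then overlapped in pull-down (8636 to 9572 CPM against 9438 to 9921 CPM) but not in sorted cells (2586 to 3009 CPM against 3029 to 3354 CPM), and complex IV overlapped in both. Complex V, whose raw shares overlapped in both, was above PBS in every LPS library on this scale, at 6104 to 6537 CPM against 5811 to 6040 CPM in pull-down and 2256 to 2500 CPM against 2031 to 2196 CPM in sorted cells. In pull-down from sorted cells complexes III and V were higher after LPS on both scales without overlap. Their raw shares were 0.115% to 0.158% against 0.100% to 0.108% for complex III and 0.304% to 0.384% against 0.260% to 0.276% for complex V. Among single genes of that preparation, the groups did not overlap for 13 of 84 members, beside 28.5% of all genes tested.

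Cell type markers moved with LPS as well. Neutrophil and monocyte markers summed to 4.599 to 15.3 CPM after PBS and 132 to 211 CPM after LPS in pull-down, and to 10.1 to 28.7 CPM and 77.6 to 120.3 CPM in IgG. In sorted cells they stood at 12.5 to 22.4 CPM and 17.6 to 59.99 CPM, and in pull-down from sorted cells at 37.1 to 144 CPM and 81.7 to 125 CPM, and the groups overlapped in both. Of the 8 listed 4 could be tested, and 2 were higher after LPS in pull-down and in sorted cells. Of 20 microglial markers 9 were lower and 1 higher after LPS in pull-down, 10 and 2 in sorted cells, and 13 and 0 in pull-down from sorted cells. Their part in the members' values was not tested. Of 13 tricarboxylic acid cycle genes 4 were higher and 1 lower after LPS in sorted cells.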

How the data were processed

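The 3 tables held raw read counts per gene over exons, deposited by the authors as whole numbers with a column for each of the 67 libraries. The submitters' processing notes list HOMER, bcl2fastq, HISAT version 0.1.5 and the mm9 build, without their roles. Annotation, strand and the handling of reads that match several places are not given in the sources used here. Totals ran from 166851 to 3513317 counts per library, and counting error limits genes near the filter.

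Each experiment was fitted with all its groups in edgeR version 4.0.16 (R version 4.3.3, limma version 3.58.1). The filterByExpr function removed low genes at a minimum count of 10, libraries were scaled by TMM, and groups were compared with the quasi-likelihood F test. P values were adjusted by Benjamini-Hochberg over every gene in the fit, with calls at an adjusted p under 0.05. The error given with a log2 fold change is its standard error (SE), and printed levels are single libraries. The fits were also run on simulated counts in which few genes changed and every gene had the same dispersion. That setting does not test the scaling where a large share of genes differs. Replicates are individual mice, and p values measure the spread between them.

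Text names, per comparison, the called member with the highest and the lowest log2 fold change in each complex whose higher group averaged 10 CPM or more, and a fixed set of members with cell type markers and pathway genes. Further members, the role groups and the members given per library were chosen after their values were seen. The members and lists were chosen with earlier results of these data known. In the LPS experiment the titles carry a running number from 1 to 7 over both treatments that all 4 preparations share, and the series' text has sorting and pull-down done on 1 animal, so this number was taken to mark the mouse within a treatment. Same-numbered pull-down and sorted libraries deviated together only weakly (correlations of 0.018 to 0.065 in PBS and 0.018 to 0.082 in LPS mice). Each of the 3 and 4 pull-downs correlated best with its own number. Pull-downs of LPS and PBS mice, which are different mice, also matched best by replicate number in 3 of 3 pairs. Sorted cells matched pull-down from sorted cells in 2 of 3 PBS and 1 of 4 LPS pairs. Best matches therefore cannot show that the number marks the mouse. The fits given have no block, and the value with the mouse as a block is given where it changes a call. Fits with a block held only the groups compared, so both settings changed together. In the digest and driver experiments nothing ties a number to an animal, and no pair of groups had a correlation over 0.1 in every pair. Correlations between same-numbered inputs of Cre mice and of CreER mice with tamoxifen, which are different mice, ran from 0.046 to 0.514.

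Alternatives were DESeq2 size factors, total-count scaling, no filter on low counts, the DESeq2 version 1.42.0 Wald test, only the groups compared, a replicate block, and each library left out in turn.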

Additional observations from a re-analysis of the deposited data

Results flagged for a closer look

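In groups of 4 libraries, 14 of the 196 groups of values tested held a library far from the other 3, where chance gives about 1 in 20. In the LPS experiment, complex I took 1.06% of counts in IgG replicate 3 of LPS mice, against 0.925% to 0.948% in the others, and Cox5b stood at 428 CPM in the same library against 159 to 180 CPM. In pull-down from sorted cells of LPS mice, replicate 3 had 0.0264% of counts on accessory proteins (0.0169% to 0.0177% in the others), Ndufaf4 at 86.1 CPM (42.7 to 50.1) and Ndufs6 at 55.4 CPM (97.8 to 106), while replicate 2 had Ndufb6 at 118 CPM (79.8 to 84.1). Cox7b was 115 CPM in replicate 1 of the LPS sorted cells (160 to 163), and Atp5b was 1646 CPM in replicate 4 of the LPS pull-down (1157 to 1204).

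In the digest experiment, IgG replicate 1 had Ndufs1 at 163 CPM (249 to 263 in the others) and Sdhc at 331 CPM (231 to 238), and IgG replicate 2 had Cox7b at 362 CPM (228 to 244). Among digested sorted cells, Sdhb was 207 CPM in replicate 2 (221 to 224) and Cox7b was 86.8 CPM in replicate 4 (78.1 to 79.3). Uqcrc2 was 119 CPM in replicate 2 of the cells sorted without a digest (81.9 to 86.6).

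Tests of a difference between 2 effects found 1 member for the LPS effect in sorted cells against homogenate pull-down, Atp5sl at -1.46 on the log2 scale. For the enrichment over input with Cre against CreER and tamoxifen they found 66 members. The log2 difference was 3.53 for Uqcrb, 2.80 for Ndufb6, 2.68 for Ndufa4, 2.52 for Uqcrc2, 2.41 for Cox7b, 2.06 for Atp5k and 1.87 for Ndufaf4. It was 1.60 for Cox4i1, 1.31 for Ndufs6, 1.22 for Uqcr11, 1.18 for Atp5b, 1.15 for Sdhb, 0.98 for Cox5b, 0.85 for Uqcrh and 0.80 for Ndufs1.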

How the results depend on the processing

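Over 26 counts of members called, each recomputed under every alternative, 140 recomputed counts under another setting stayed within 1.5 times of the value given and 16 did not, and with a library left out 172 stayed and 14 did not. The LPS count in pull-down (5) became 9 with DESeq2 size factors, 13 with total counts, 11 with the Wald test, 17 with only the groups compared and 1 to 9 with a library left out. The LPS count in IgG (0) became 2 without the filter, 1 with the Wald test and 0 to 1 with a library left out. The difference in LPS effect between sorted cells and pull-down (1) became 2 with the Wald test, 3 with only the groups compared and 0 to 1 with a library left out, and that between pull-down and IgG (0, with 6 at an unadjusted p under 0.05) became 1 without the filter, 2 with the Wald test and 0 to 1. Pull-down from sorted cells over sorted cells (25) became 14 with total counts, and pull-down over input without tamoxifen (15) became 3 to 7 with a library left out.

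Some values changed sign. The LPS median in pull-down from sorted cells (0.11) was 0 without the filter and -0.018 to 0.16 with a library left out, the lowest without LPS replicate 3. The median of pull-down from sorted cells over sorted cells was -0.056 with total counts, and that of CreER pull-down without over with tamoxifen (0.20) was -0.044 to 0.27 with a library left out, the lowest without the no-tamoxifen replicate 1. Atp5g1 over IgG in PBS mice (0.03) was -0.49 with DESeq2 size factors, -0.40 with total counts and -0.49 with the Wald test, Ndufs1 in sorted cells over pull-down of LPS mice (0.43) was -0.13 without the filter, and Ndufs6 over input with CreER and tamoxifen (0.08) was -0.40 with total counts. The causes were not tested.

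Total counts moved the median of all genes by 0.21 in sorted cells over pull-down of PBS mice, where 58 members were lower and 9 higher, and by -0.46 in pull-down over input of CreER mice with tamoxifen. With a library left out, 66 to 68 members were called in sorted cells over pull-down of PBS mice, 53 to 61 for Cre pull-down over input and 51 to 64 for the difference between drivers.

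With the replicate number as a block, and only the groups compared, the LPS count was 21 in pull-down and 14 in pull-down from sorted cells, where a number joins different mice. The difference in LPS effect between sorted cells and pull-down, where it was taken to mark the mouse, had 3 members. That was the same number as with only the groups compared and no block. In the other comparisons within mice of the LPS experiment the block moved no count by more than 1.5 times. In the driver experiment, where numbers were not shown to mark pairs, pull-down over input without tamoxifen had 26 calls and CreER pull-down without over with tamoxifen 43. Atp5g1 over IgG in the digest experiment (-0.10) was 0.39 with this block. Limits that remain are the low depth of pull-downs from sorted cells and without tamoxifen, reads shared with near-identical copies, and gene length, which was not used.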
